A study of Mus musculus with 27 samples.

Results

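Colonic epithelium of mice gavaged with 3 μg/kg TCDD, a chlorinated dioxin that persists in the environment, was compared with that of mice given vehicle. The 3 libraries labelled 3 μg/kg (mice 49, 51 and 52) and the 3 labelled dose 0 (mice 2, 3 and 4) were taken by their dose labels, which gave 6 of the 27 mice of the series. All 27 were male C57BL/6 mice that received sesame oil with or without TCDD by gavage every 4 days, 7 times in all, beginning at 28 days of age, and tissue was taken on day 28 of the study at 56 days of age. The series has 9 groups of 3 mice, from vehicle to 30 μg/kg, and 1 library of total RNA was sequenced per mouse from scrapings of the epithelium. Tissue was collected in the first hours of the light phase, and the hour of each mouse is not given in the sources used here.

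TCDD binds the aryl hydrocarbon receptor (AhR), a transcription factor that pairs with ARNT and binds dioxin response elements (DREs) in DNA. Its classical targets are cytochrome P450 enzymes of the CYP1 family, conjugating enzymes, and the AhR repressor, which limits the receptor's activity. The circadian clock is a loop in which BMAL1 (encoded by Arntl) with CLOCK or NPAS2 binds E-boxes and drives Per, Cry and Nr1d genes. Their products repress BMAL1 in turn, and the output factors DBP, TEF and HLF bind D-boxes that NFIL3 represses. Clock transcripts swing over the day in most tissues, the intestine included.

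Gene counts summed to between 9416898 and 10423536 in the vehicle libraries and between 10918695 and 12856510 in those of 3 μg/kg. Reads that named no gene made up 67.1 to 67.8% of the total with vehicle and 63.7 to 64.5% at 3 μg/kg, and mitochondrial genes 4.1 to 4.5% and 3.44 to 3.77% of gene counts. Both measures separated the groups, and their part in the results below was not tested. The 12 colonocyte markers had a summed level of 14000 to 14600 CPM (read counts scaled to a common library size) with vehicle and 16200 to 18700 at 3 μg/kg, and none was called different, while the 5 erythrocyte markers were all too low to be tested. By the barcodes in the file names, every vehicle library belonged to a first index set of 16 mice, in which each barcode was used for the first time, and every 3 μg/kg library to a second set of 11 mice, so that in this comparison dose and index set cannot be told apart. The 1 μg/kg group has mouse 41 in the first set and mice 43 and 44 in the second, and the 10 μg/kg group lies in the second. The 3 μg/kg mice were therefore also compared with mice 43 and 44 and with the 3 mice given 10 μg/kg, within the second set.

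A gene was called at a fold change of at least 1.5 and a Benjamini-Hochberg adjusted p, by the quasi-likelihood test of edgeR, under 0.05. Of 16496 genes tested, 115 (0.697%) were called at 3 μg/kg against vehicle, 50 (0.303%) higher and 65 (0.394%) lower. The 50 rises held 3 AhR targets and 12 clock genes. Of the 10 rises of at least 4-fold, 8 belonged to the AhR and clock lists, against 2 of the 11 falls of that size. These lists hold 16 and 37 of the 16496 genes tested, and their members were chosen with earlier results of these data known. In no list were 90 of the 115 called genes. With the adjusted p alone, 231 genes passed, 145 higher and 86 lower. The count changed with the mice in the fit. It was 48 without vehicle mouse 2, 76 without vehicle mouse 4, 59 without mouse 49 and 63 without mouse 51, and when the index set was added to the fit it was 2, Cyp1a1 and Hlf.

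The AhR targets Cyp1a1, Cyp1b1 and Ahrr rose, with larger folds than any other member of their list. Of the 20 listed targets, 16 could be tested, and 3 were called higher and none lower, against the 0.697% of all genes. The median log2 fold change of the 16 was 0.37, beside -0.00265 over all genes, and 13 of the 16 had an estimate above 0. Their promoters, the 250 bases before and 50 after the RefSeq transcription start (GRCm38.p6), are shown because the 3 windows each hold the DRE core, GCGTG on either strand, which capitals mark. The windows are chr9:57697363-57697662 on the plus strand for Cyp1a1, chr17:79715012-79715311 on the minus strand for Cyp1b1 and chr13:74292282-74292581 on the minus strand for Ahrr.
Cyp1a1: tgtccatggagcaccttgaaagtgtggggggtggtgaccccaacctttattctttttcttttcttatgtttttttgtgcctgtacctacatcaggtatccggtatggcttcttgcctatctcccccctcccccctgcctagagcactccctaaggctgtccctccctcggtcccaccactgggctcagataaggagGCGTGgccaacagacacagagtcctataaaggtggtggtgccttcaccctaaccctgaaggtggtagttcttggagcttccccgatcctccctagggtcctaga
Cyp1b1: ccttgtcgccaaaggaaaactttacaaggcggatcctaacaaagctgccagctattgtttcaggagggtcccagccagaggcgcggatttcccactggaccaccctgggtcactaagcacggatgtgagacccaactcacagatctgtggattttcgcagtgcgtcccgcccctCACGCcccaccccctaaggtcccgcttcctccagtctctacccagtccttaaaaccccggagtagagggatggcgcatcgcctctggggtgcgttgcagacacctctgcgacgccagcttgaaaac
Ahrr: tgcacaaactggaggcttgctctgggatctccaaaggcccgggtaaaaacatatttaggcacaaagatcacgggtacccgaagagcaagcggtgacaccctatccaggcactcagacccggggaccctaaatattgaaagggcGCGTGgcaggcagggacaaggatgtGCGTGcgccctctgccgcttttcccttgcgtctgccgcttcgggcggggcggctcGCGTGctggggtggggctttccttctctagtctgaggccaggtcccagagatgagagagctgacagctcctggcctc
The core begins 54 bases before the start in Cyp1a1, 76 in Cyp1b1, where it reads on the other strand, and 107, 82 and 27 in Ahrr. It is a short and common motif, found in 32.4% of the 32851 promoter windows of the table, and its presence in a window is a match of letters only.

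Cyp1a1 encodes the monooxygenase most used as a marker of AhR activity. The vehicle libraries held 1, 0 and 1 counts of it, whereas mice 49, 51 and 52 had 50.6, 140 and 58.9 CPM. The 2940 counts of the 3 treated mice against 2 in the 3 vehicle mice gave a ratio of 1240 after scaling to library size (95% exact interval 342 to 10200, counting error only), and the fitted log2 fold change was 10.06 (SE 0.57, edgeR adjusted p = 1.01e-10). Mouse 51 lay well above mice 49 and 52, and without it the log2 fold change was 9.46. Cyp1b1, a related monooxygenase, had 2, 1 and 1 counts with vehicle and 1.75, 2.14 and 2.02 CPM at 3 μg/kg. Its ratio of 70 counts to 4 was 14.7 (95% exact interval 5.51 to 55.6), and its log2 fold change 3.78 (SE 0.63, edgeR adjusted p = 0.00268).

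Ahrr encodes the AhR repressor. Its level was 1.67, 1.48 and 2.16 CPM with vehicle and 4.504, 7.461 and 5.739 CPM at 3 μg/kg, and no treated mouse came within 1 CPM of a vehicle mouse. The log2 fold change was 1.73 (SE 0.26, edgeR adjusted p = 0.00253), or 3.32-fold. When the index set was added to the fit, Cyp1a1 stayed called at 10.1, whereas Ahrr (2.41, edgeR adjusted p = 0.0763) and Cyp1b1 (3.79, edgeR adjusted p = 0.148) were no smaller but lost the call.

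None of the remaining AhR targets that could be tested was called. Nfe2l2, which encodes the antioxidant regulator NRF2, had an adjusted p of 0.0492 by edgeR but a log2 fold change of only 0.44, under the 1.5-fold threshold. Nqo1, a quinone reductase, had 39.8, 61.7 and 55.2 CPM with vehicle and 75.7, 71.8 and 82.0 CPM at 3 μg/kg. These groups did not overlap, yet the log2 fold change of 0.55 did not pass the test (edgeR adjusted p = 0.228). Tiparp, the ADP-ribosyltransferase that modifies AhR, had overlapping groups and a log2 fold change of -0.15 (edgeR adjusted p = 0.684). The 13 uncalled targets ranged from -0.15 to 0.82, the highest being Ido1, which degrades tryptophan. Groups did not overlap in 7 of the 16 targets, beside 24.6% of all genes. Of the targets too low to test, Cyp1a2, the hepatic CYP1 enzyme, had 0 counts in every one of the 6 libraries, Aldh3a1 had at most 3 counts in any library, and Gsta2 at most 2.

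The receptor and its partners did not pass the test in any of 7 genes. Ahr itself was at 26.4, 24.0 and 28.1 CPM with vehicle and 28.7, 28.6 and 21.8 CPM at 3 μg/kg, a log2 difference of 0.01 (SE 0.13) whose sign changed with the setting, and its partner Arnt differed by -0.04 (SE 0.07). Among 19 targets of NRF2, which answers to oxidative stress, 1 was called, beside 0.697% of all genes, and the median was 0.07. That gene, Abcc2, encodes an apical exporter of conjugates and had 1.48, 3.37 and 3.04 CPM with vehicle and 11.6, 6.26 and 15.04 CPM at 3 μg/kg. The treated mice all lay above the vehicle mice, with a log2 fold change of 2.06 (SE 0.45, edgeR adjusted p = 0.0199). The call was lost without vehicle mouse 2 (1.78, edgeR adjusted p = 0.145) and also without vehicle mouse 4, mouse 49 or mouse 52.

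**Figure D1:**
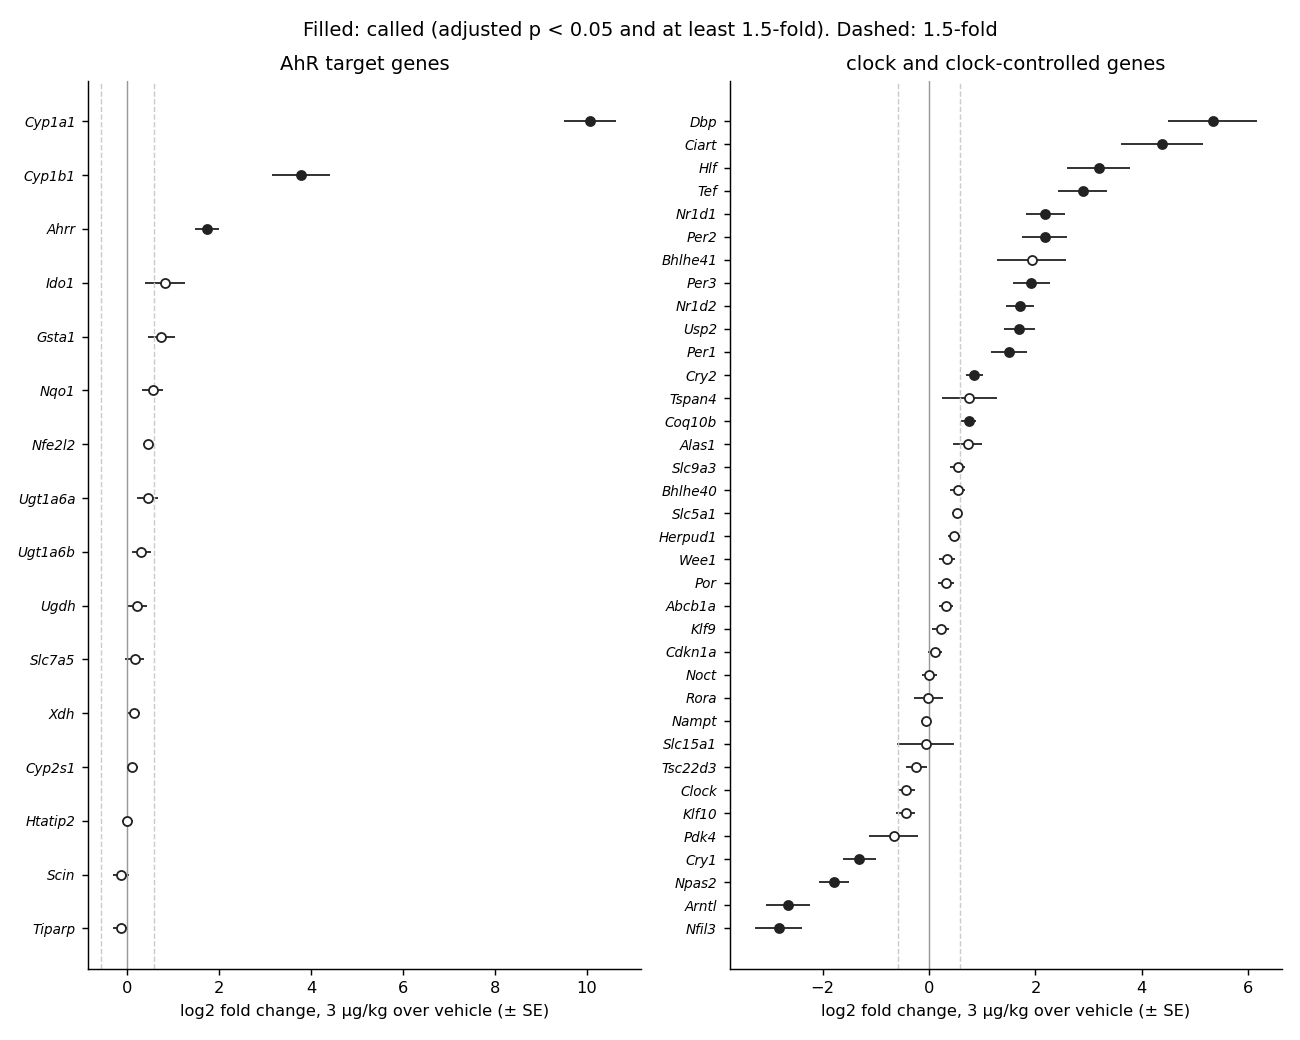
Log2 fold change at 3 μg/kg over vehicle (x axis, bars ± SE) of AhR targets (left) and clock or clock-controlled genes (right) that were tested, with filled points for called genes and dashed lines at 1.5-fold. Cyp1a1, Cyp1b1 and Ahrr stand apart from 13 uncalled AhR targets, whereas 16 of 37 clock genes were called on both sides of 0.

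The clock genes changed on both sides of the loop. Of 37 genes in the 4 clock lists, all tested, 16 were called, 12 higher and 4 lower, against 0.697% of all genes, and the groups did not overlap in 28 of the 37, beside 24.6% of all genes. Of the repressing arm, 7 of 10 genes rose, as did the D-box factors Dbp, Tef and Hlf, and Arntl, Npas2, Cry1 and Nfil3 fell. Promoters of 3 of these genes are shown because they carry the motifs by which the loop is read, CACGTG (E-box) in Ciart and Cry1 and TTATGTAA (D-box) in Per3. Capitals mark the motif on either strand, and the windows, from the same RefSeq table, are chr3:95882179-95882478, chr10:85185005-85185304 and chr4:151044616-151044915, all on the minus strand.
Ciart: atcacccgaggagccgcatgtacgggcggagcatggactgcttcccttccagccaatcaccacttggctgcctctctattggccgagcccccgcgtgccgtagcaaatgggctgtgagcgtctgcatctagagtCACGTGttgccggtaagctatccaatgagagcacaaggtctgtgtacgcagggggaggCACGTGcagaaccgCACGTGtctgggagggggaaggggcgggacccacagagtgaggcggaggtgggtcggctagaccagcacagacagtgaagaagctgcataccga
Cry1: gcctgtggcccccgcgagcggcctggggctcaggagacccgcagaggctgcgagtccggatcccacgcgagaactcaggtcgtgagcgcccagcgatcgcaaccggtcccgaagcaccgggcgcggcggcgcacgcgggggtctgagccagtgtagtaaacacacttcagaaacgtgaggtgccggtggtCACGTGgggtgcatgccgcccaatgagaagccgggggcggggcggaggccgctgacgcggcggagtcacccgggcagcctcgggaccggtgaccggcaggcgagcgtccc
Per3: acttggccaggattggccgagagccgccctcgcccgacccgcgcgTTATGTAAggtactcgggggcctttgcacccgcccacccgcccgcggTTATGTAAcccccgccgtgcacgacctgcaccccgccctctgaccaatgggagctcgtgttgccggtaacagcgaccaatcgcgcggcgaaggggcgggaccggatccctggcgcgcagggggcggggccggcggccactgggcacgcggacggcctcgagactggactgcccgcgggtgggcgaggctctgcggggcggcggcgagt
E-boxes begin 116, 58 and 44 bases before the start in Ciart and 60 in Cry1, and D-boxes 205 and 158 bases before it in Per3, and none of these overlaps another of the motifs searched. Of all windows, 7.15% hold this E-box and 0.938% this D-box. Ciart rose and Cry1 fell, although both windows hold the E-box. Of the 15 called clock genes that have a window, 5 hold the E-box and 2 the D-box, beside 8.09% and 1.11% of all 27025 genes in the table. The DRE core of the AhR targets was found in 13 of these 15, beside 35.2% of all genes, so that these letters do not separate one group from the other.

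In the activating arm, 2 of 5 genes were called, both lower, beside 0.394% of all genes called lower. Arntl, which encodes BMAL1, had 79.1, 60.8 and 54.7 CPM with vehicle and 9.56, 11.4 and 9.85 CPM at 3 μg/kg. The groups lay far apart, with a log2 fold change of -2.66 (SE 0.41, edgeR adjusted p = 0.00268), or 6.31-fold lower. Npas2, a partner of BMAL1 that can stand in for CLOCK, had 89.3, 86.4 and 75.3 CPM with vehicle and 22.1, 26.4 and 24.3 CPM at 3 μg/kg (-1.79, SE 0.29). Clock itself had 167, 141 and 163 CPM with vehicle and 101, 118 and 129 CPM at 3 μg/kg, without overlap, but its difference of -0.43 did not pass the test (edgeR adjusted p = 0.172). Rora, an activator that competes with NR1D proteins, differed by -0.01 and was not called.

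In the repressing arm, 8 of 10 genes were called, 7 higher and 1 lower, beside 0.697% of all genes, and the median log2 fold change was 1.81. Ciart, a repressor of CLOCK and BMAL1, had 0.492, 0.211 and 0.884 CPM with vehicle and 9.93, 8.58 and 15.4 CPM at 3 μg/kg. It had the largest rise of the list at 4.38 (SE 0.78, edgeR adjusted p = 0.00421). Nr1d1, which encodes the BMAL1 repressor REV-ERBα, had 25.3, 39.8 and 28.7 CPM with vehicle and 153, 125 and 149 CPM at 3 μg/kg (2.19, SE 0.36), and its relative Nr1d2 rose by 1.71 (SE 0.25).

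The 3 Period genes rose together. Per2 had 17.1, 11.8 and 17.3 CPM with vehicle and 65.5, 67.7 and 75.4 CPM at 3 μg/kg (2.17, SE 0.42). Per3 had 34.04, 28.9 and 25.5 CPM with vehicle and 115, 102 and 119 CPM at 3 μg/kg (1.92, SE 0.35). Per1 had 42.5, 39.0 and 46.6 CPM with vehicle and 121, 119 and 121 CPM at 3 μg/kg, a rise of 1.495 (SE 0.34, edgeR adjusted p = 0.0263). Treated mice lay above vehicle mice in all 3 genes, and the Per1 values at 3 μg/kg were nearly equal.

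The Cryptochrome genes moved in opposite directions. Cry2 rose by 0.85 (SE 0.16, edgeR adjusted p = 0.00683), from 29.6 to 34.2 CPM with vehicle to 47.9 to 63.1 CPM at 3 μg/kg. Cry1 had 37.9 to 45.5 CPM with vehicle and 16.5, 13.98 and 19.5 CPM at 3 μg/kg (-1.31, SE 0.31, edgeR adjusted p = 0.0323), and the groups did not overlap. The E-box repressors Bhlhe40 (0.54, edgeR adjusted p = 0.0619) and Bhlhe41 (1.93, edgeR adjusted p = 0.141) had higher values in every treated mouse and did not pass the test.

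Among the output factors, the 3 D-box activators rose and their repressor fell. Dbp had 1.77, 2.00 and 1.37 CPM with vehicle and 76.3, 55.9 and 75.4 CPM at 3 μg/kg, 40.2-fold higher (log2 5.33, SE 0.84, edgeR adjusted p = 0.00268). Tef had 19.4, 22.1 and 17.6 CPM with vehicle and 146, 132 and 159 CPM at 3 μg/kg (2.89, SE 0.47). Hlf had 0.394, 0.211 and 0.393 CPM with vehicle and 2.57, 3.09 and 3.72 CPM at 3 μg/kg (3.19, SE 0.59). In none of the 3 did a treated mouse come near a vehicle mouse. Nfil3, which represses at the D-box, had 12.4, 12.1 and 13.1 CPM with vehicle and 1.93, 1.89 and 1.47 CPM at 3 μg/kg, a fall of 2.83 on the log2 scale (SE 0.45). Klf9 and Klf10, factors that many tissues express rhythmically, differed by 0.22 and -0.44 and were not called. Dbp overlaps Sphk2, and Nr1d1 overlaps Thra, on the opposite strand, and whether the counting used strand is not given in the sources used here.

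Of 16 other clock-controlled genes, 2 were called, both higher, beside 0.303% of all genes called higher. Usp2, a deubiquitinase of clock proteins, had 17.0, 14.2 and 15.7 CPM with vehicle and 48.7, 49.3 and 54.1 CPM at 3 μg/kg (1.69, SE 0.29). Coq10b, a coenzyme Q binding protein, rose by 0.75 (SE 0.14, edgeR adjusted p = 0.00683). Slc5a1, the sodium-glucose transporter, and Herpud1, a factor of protein degradation at the endoplasmic reticulum, passed the adjusted p but at 0.53 and 0.47 stayed under 1.5-fold. The 14 uncalled genes ranged from -0.67 to 0.76, and the median of all 16 was 0.33. Cipc, a CLOCK-interacting repressor that was in no list and is named after its values were seen, rose by 0.92 (SE 0.15, edgeR adjusted p = 0.00268), from 150 to 170 CPM with vehicle to 282 to 345 CPM at 3 μg/kg. Whichever of the 6 mice was left out, the 3 AhR targets and 12 of the 16 called clock genes stayed called. Cry1 (edgeR adjusted p up to 0.162) and Per1 (up to 0.13) were not called in any of these fits, Per2 was not called without vehicle mouse 3 (2.02, edgeR adjusted p = 0.052), and Coq10b was not called without mouse 52 (0.61, edgeR adjusted p = 0.0513). With vehicle, 0.01, 0.03 and 0.1 μg/kg pooled as controls all 16 stayed called. The log2 fold change was then 3.18 for Dbp (edgeR adjusted p = 0.00566), 3.06 for Ciart (0.00404) and 1.51 for Nr1d1 (0.00406). Each was a fold more than 1.5 times smaller than against vehicle alone. These controls include mouse 14, given 0.01 μg/kg, with 60.0 CPM of Dbp, 10.7 of Ciart and 142 of Nr1d1. The other pooled mice had at most 5.94, 0.884 and 62.1 CPM of these genes. The part of mouse 14 in the smaller folds was not tested.

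The levels of Cyp1a1 and Ahrr were set beside those of clock genes over all doses, as in the plot of levels in all 27 mice. Cyp1a1 had at most 2 counts in any mouse up to 0.1 μg/kg, 5 to 7 counts at 0.3 μg/kg, and means of 5.69, 83.1, 1103 and 2200 CPM at 1, 3, 10 and 30 μg/kg. Ahrr ran from 1.67 to 2.85 CPM at 1 μg/kg, from 4.504 to 7.461 CPM at 3 μg/kg and from 57.96 to 75.2 CPM at 10 μg/kg. Thus neither gene overlapped between neighbouring doses from 1 to 30 μg/kg. Dbp averaged 14.5 CPM at 0.3 μg/kg (SD 2.23, n = 3), 62.4 at 1 μg/kg (SD 22.9), 69.2 at 3 μg/kg (SD 11.5), 75.5 at 10 μg/kg (SD 11.9) and 52.3 at 30 μg/kg (SD 21.3), and the last 4 groups overlapped. Arntl overlapped between neighbouring doses from 1 to 30 μg/kg as well. Tef and Per2, by contrast, still differed between some of these doses without overlap. Tef overlapped at 1 and 3 μg/kg but ran from 132 to 159 CPM at 3 μg/kg, from 163.9 to 169.5 CPM at 10 μg/kg and from 178 to 188 CPM at 30 μg/kg. Per2 averaged 57.3, 69.5, 90.7 and 123 CPM at 1, 3, 10 and 30 μg/kg, and its groups overlapped only at 3 and 10 μg/kg. In the first index set, 2 of 16 mice had Dbp within the range of the second set, namely mouse 41, given 1 μg/kg (88.0 CPM), and mouse 14, given 0.01 μg/kg (60.0 CPM). Mouse 14 had 0 counts of Cyp1a1, and mouse 41 had 74.

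**Figure D2:**
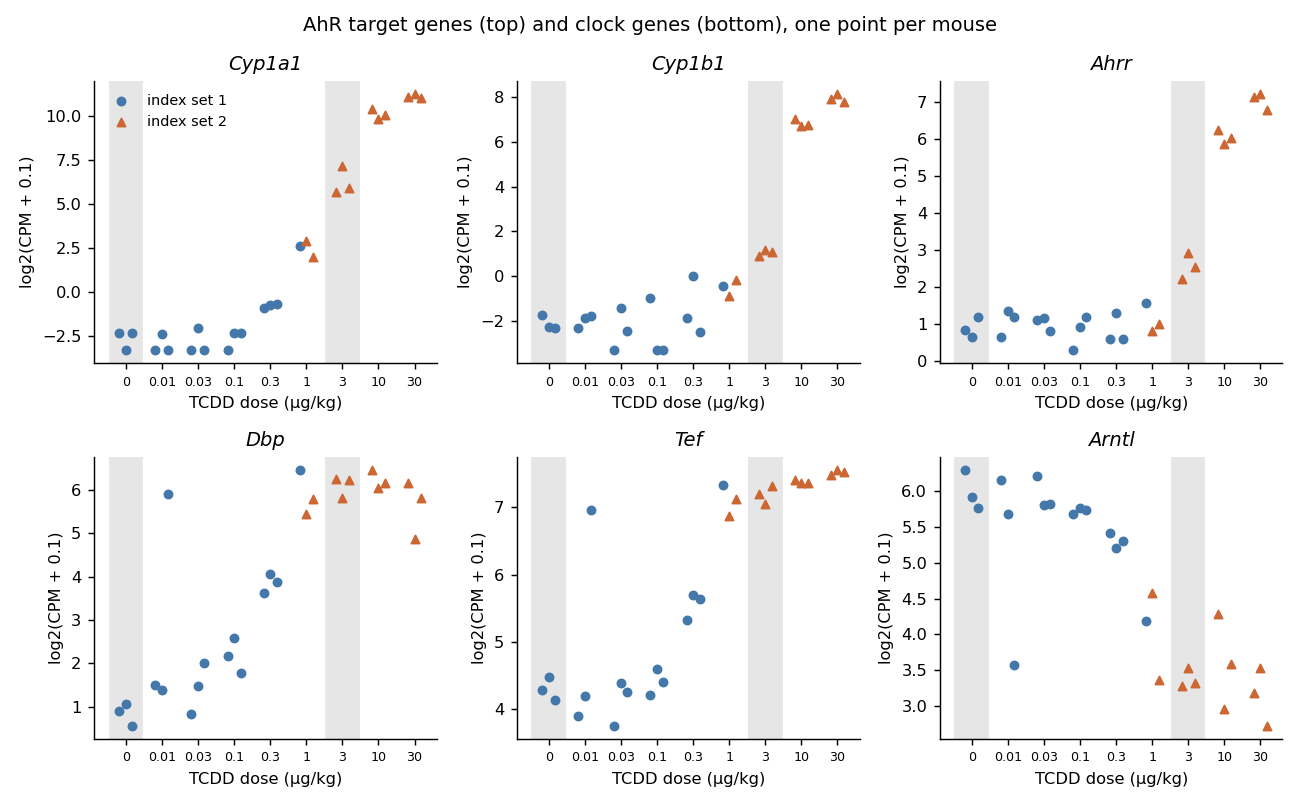
Levels of 3 AhR targets (top) and 3 clock genes (bottom) in all 27 mice, as log2(CPM + 0.1) against TCDD dose in μg/kg, with 1 point per mouse, circles for the first and triangles for the second index set, and grey bands on vehicle and 3 μg/kg. Cyp1a1, Cyp1b1 and Ahrr were higher at 10 than at 3 μg/kg in every mouse, whereas Dbp and Arntl overlapped between neighbouring doses from 1 to 30 μg/kg and Tef overlapped at 1 and 3 μg/kg but not at 3, 10 and 30 μg/kg. A single 0.01 μg/kg mouse had clock levels within the range of the second index set.

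Within the second index set, 4 genes (0.0242% of those tested) were called at 3 against 1 μg/kg, 3 higher (0.0182%) and 1 lower (0.00606%), and 8 (0.0485%) at 10 against 3 μg/kg, 5 higher (0.0303%) and 3 lower (0.0182%). The first count was 0 with the compared groups fitted alone, 2 with voom, 23 with DESeq2 and 15 with no count filter. Without mouse 49, 51 or 52, taken singly, it was at least 1 and at most 3. No count is given without mouse 43 or 44, since 1 library would then stand for 1 μg/kg. The second was 5 with voom, 14 with DESeq2 and with no count filter, and 5 to 11 with 1 mouse left out. At 3 against 1 μg/kg, Cyp1a1 was higher by 3.90 (95% interval 3.13 to 4.68, edgeR adjusted p = 8.24e-06) and Ahrr by 1.73 (1.14 to 2.32, edgeR adjusted p = 0.0171), whereas the 1.64 of Cyp1b1 (0.52 to 2.75) was not called. The other 2 genes, named after their values were seen, were Pcdh17, which was lower, and the histone gene Hist1h2ab, which was higher. From 3 to 10 μg/kg all 3 AhR targets rose again, Cyp1a1 by 3.73 (3.16 to 4.30), Cyp1b1 by 5.86 (5.29 to 6.43) and Ahrr by 3.48 (3.09 to 3.86).

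None of the 37 clock genes was called in either contrast within the set, and the smallest adjusted p by edgeR was 0.192 and 0.861. Among the 16 clock genes called against vehicle, the differences between 3 and 1 μg/kg ran from -0.71 for Arntl to 1.58 for Hlf, and those between 10 and 3 μg/kg from -0.46 to 0.38. The 95% interval included 0 in 15 of the 16 at 3 against 1 μg/kg, the exception being Hlf (0.55 to 2.60), and in all 16 at 10 against 3 μg/kg. The intervals were wide for some genes, from -0.93 to 1.89 for Dbp at 3 against 1 μg/kg and from -0.80 to 1.18 for Tef, so that smaller differences were not detectable with 2 mice at 1 μg/kg. For Cry2 at 10 against 3 μg/kg the interval was -0.01 to 0.64. When the index set was added to the fit, an adjustment that only the 3 mice given 1 μg/kg inform, the 16 called clock genes kept their direction against vehicle, among them Dbp at 6.16 (edgeR adjusted p = 0.0763), Tef at 3.22 (0.0941) and Arntl at -2.56 (0.128), but only Hlf, at 4.91 (0.0253), was called.

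**Figure D3:**
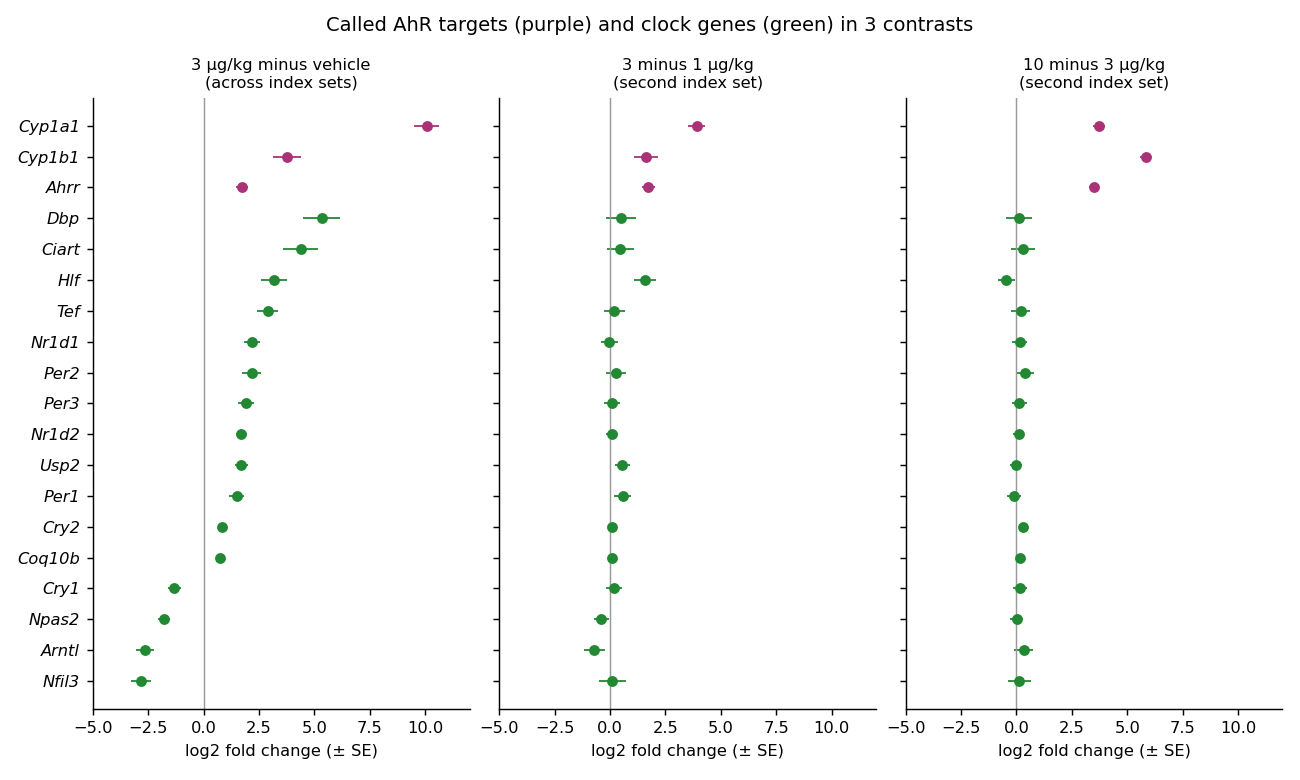
Log2 fold change (x axis, bars ± SE) of the 3 AhR targets (purple) and 16 clock genes (green) called against vehicle, in the contrast with vehicle (left), with 1 μg/kg (middle) and with 10 μg/kg (right), the last given as 10 minus 3 μg/kg. The contrast with vehicle chose the genes and is shown as a description. The AhR targets lie at 1.64 to 3.90 in the middle panel and 3.48 to 5.86 on the right, and the clock genes lie between -0.71 and 1.58 in the middle panel and between -0.46 and 0.38 on the right.

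Outside the AhR and clock lists, antimicrobial proteins were examined as a list. Of 14 tested, 3 fell, beside 0.394% of all genes, and none rose. All 14 estimates were below 0, beside 8322 of the 16496 over all genes, and the median was -0.71. Their summed level was 5960 to 7610 CPM with vehicle and 4920 to 5180 CPM at 3 μg/kg. Mptx1, a pentraxin made by the gut epithelium, had 1418, 851 and 1191 CPM with vehicle and 132, 80.1 and 33.3 CPM at 3 μg/kg (-3.82, SE 0.91, edgeR adjusted p = 0.0359). Itln1, the lectin intelectin-1, had 10.3, 5.17 and 13.8 CPM with vehicle and 1.10, 0.429 and 0.931 CPM at 3 μg/kg (-3.56, SE 0.81). Ang4, a secreted ribonuclease with antibacterial activity, had 246, 164 and 368 CPM with vehicle and 59.7, 23.1 and 28.7 CPM at 3 μg/kg (-2.81, SE 0.66). The treated mice lay below the vehicle mice in all 3 genes. Mptx1 was nevertheless below every vehicle mouse, at 344 and 154 CPM, in 2 of the mice given 0.01 μg/kg. At 0.1 μg/kg Mptx1 was at 118 to 360, Itln1 at 0.792 to 3.89 and Ang4 at 41.4 to 73.6 CPM. Each of these ranges overlapped that at 3 μg/kg. With vehicle, 0.01, 0.03 and 0.1 μg/kg pooled as controls none of the 3 was called (edgeR adjusted p = 0.064 for Mptx1, 0.0833 for Itln1 and 0.149 for Ang4).

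By rule, the called genes outside the pathway lists with the largest changes were also examined. Pcdh17, a protocadherin, had the smallest adjusted p of these genes. It had 34.7, 33.4 and 33.2 CPM with vehicle and 8.27, 9.43 and 11.5 CPM at 3 μg/kg (-1.79, SE 0.18, edgeR adjusted p = 4.11e-06), and the groups were narrow and far apart. It also changed within the second index set, by -1.41 (95% interval -1.81 to -1.02) at 3 against 1 μg/kg and by -2.86 (-3.35 to -2.38) at 10 against 3 μg/kg, both called. Acta1, the actin of skeletal muscle, had 2.56, 4.43 and 4.52 CPM with vehicle and 19.95, 16.1 and 18.6 CPM at 3 μg/kg (2.25, SE 0.26, edgeR adjusted p = 6.14e-05). Every treated mouse was well above every vehicle mouse, and Acta1 was higher again at 10 μg/kg by 1.87 (1.42 to 2.33). Its difference between 3 and 1 μg/kg was 1.46 (95% interval 0.87 to 2.05, edgeR adjusted p = 0.0841), which was not called. Of the other 5 skeletal muscle markers, all too low to test, Myh1 and Myh4 had 0 counts in all 6 libraries and Mylpf 1 to 5 counts in each. Ckm had 0, 0 and 1 counts with vehicle and 0, 10 and 3 counts at 3 μg/kg, and Tnnt3 at most 1 count in any library.

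Further rises named by the rule were smaller. Tns4, a tensin of focal adhesions, had 342, 304 and 289 CPM with vehicle and 632, 592 and 701 CPM at 3 μg/kg (1.04, SE 0.17, edgeR adjusted p = 0.00268). Slc2a5, the fructose transporter, rose by 1.51 (SE 0.35), and Csrnp1, a nuclear protein, by 1.45 (SE 0.37). Cfap65, a protein of cilia and flagella, rose by 1.65 (SE 0.33) from at most 1.16 CPM with vehicle. The other 3 were 4933404O12Rik (1.47), ENSMUSG00000085214 (1.13) and Gm17971 (1.13), and Gm17971 lies within Coq10b on the same strand, so that their reads may not be told apart.

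Among the falls, Cldn8, a tight junction claudin of the distal colon, had 111, 75.5 and 74.8 CPM with vehicle and 22.4, 27.4 and 18.8 CPM at 3 μg/kg (-1.93, SE 0.32, edgeR adjusted p = 0.00268). At 1 μg/kg Cldn8 was already at 26.8 to 34.5 CPM. As for Dbp, 2 mice of the first index set, 14 (26.4 CPM) and 41 (31.5 CPM), lay within the range of the second. A link of Cldn8 to the clock was not tested. Tnip3, an inhibitor of NF-κB signalling, had 51.2, 22.1 and 25.2 CPM with vehicle and 8.46, 6.86 and 9.77 CPM at 3 μg/kg (-1.97, SE 0.47). Mice given 0.01 μg/kg had 6.71 to 21.2 CPM of Tnip3, all below the vehicle mice. At 0.03 and 0.1 μg/kg it ran from 9.82 to 35.05 and from 10.9 to 25.2 CPM. Pla2g4c, a phospholipase, had 15.5, 7.06 and 136 CPM with vehicle and 2.94, 2.06 and 1.40 CPM at 3 μg/kg. Its log2 fold change of -4.64 (SE 1.09) leaned on vehicle mouse 4, without which it was -2.41 and not called. At 0.01, 0.03 and 0.1 μg/kg Pla2g4c ran from 2.70 to 44.9, from 2.74 to 3.50 and from 1.62 to 4.40 CPM. Every mouse at 0.03 and 0.1 μg/kg was thus already below every vehicle mouse. Rdh18-ps (-2.13) and Gm26761 (-2.12), both at most 4.23 CPM in any of the 6 mice, fell as well. Over 13 alternative fits Rdh18-ps ran from -2.29 to -1.4 and Gm26761 from -2.37 to -1.61, and each lost the call in 9.

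Gsdmc, which encodes the pore-forming protein gasdermin C, had 26.4, 11.1 and 25.5 CPM with vehicle and 7.26, 7.12 and 5.74 CPM at 3 μg/kg (-1.65, SE 0.36, edgeR adjusted p = 0.0227). Over 13 alternative fits, those with 1 mouse left out among them, its log2 fold change ran from -2.36 to -1.01. The call was lost in 7 of them. Examined after these values were seen, 5 of the 6 gasdermin C genes tested were called, all lower, beside 0.394% of all genes, with a median of -1.63. Their summed level was 805, 332 and 1040 CPM with vehicle and 312, 262 and 202 CPM at 3 μg/kg, so that vehicle mouse 3 lay close to the treated mice. Gsdmc2 had 245, 140 and 400 CPM with vehicle and 105, 81.0 and 70.8 CPM at 3 μg/kg (-1.62, SE 0.35), whereas the groups of Gsdmc4 overlapped. These genes are near copies that lie side by side on chromosome 15, and reads may be split among them. Cebpd, an acute-phase factor of the glucocorticoid list, fell by 1.27 on the log2 scale (SE 0.26, edgeR adjusted p = 0.0163). In that list of 10 it was called with Per1, which rose, beside 0.697% of all genes called, and the median was -0.07. Of the genes named by rule outside the AhR and clock lists, Acta1, Pcdh17, Cldn8, Tns4 and ENSMUSG00000085214 stayed called whichever of the 6 mice was left out. The other genes named by rule kept their direction but were not called without at least 3 of the 6 mice, taken singly, with an edgeR adjusted p of up to 0.244.

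**Figure D4:**
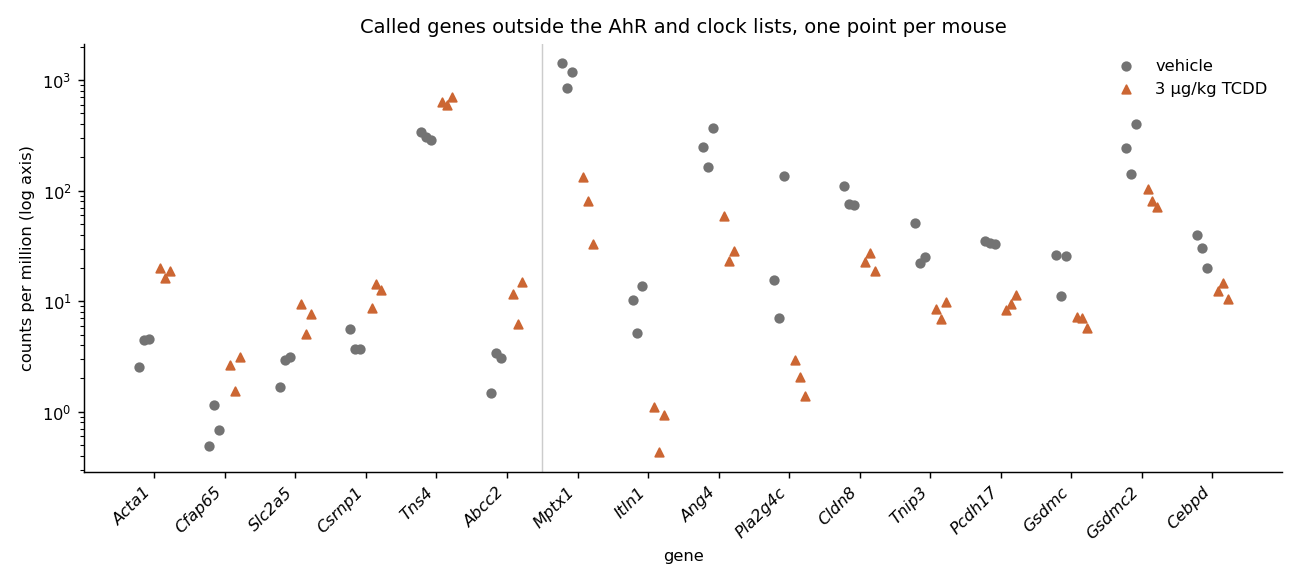
CPM (log axis) of 16 called genes outside the AhR and clock lists in the 3 vehicle mice (grey circles) and the 3 mice given 3 μg/kg (orange triangles), with rises left and falls right of the line. The groups do not overlap in these genes, and the spread is narrow for Pcdh17 and wide for Pla2g4c, where 1 vehicle mouse has 136 CPM.

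No gene was called in the lists for immediate early genes, heat shock and unfolded protein, cholesterol synthesis and uptake, fatty acid oxidation and ketogenesis, interferon-stimulated genes, MHC class II or cobalamin handling. Their medians lay between -0.07 and 0.29, and the highest, 0.29, was that of the cholesterol list, in which 13 of 14 estimates were above 0. In the cobalamin list of 14 genes, Mut, which encodes the cobalamin-dependent methylmalonyl-CoA mutase, differed by 0.11 (SE 0.10) and Cubn, the receptor for intrinsic factor with cobalamin, by 0.41 (SE 0.47).

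Markers of cell types gave no called gene other than Acta1. Smooth muscle markers nonetheless had estimates above 0 in all 8 (median 1.16), with a summed level of 95.6, 59.7 and 49.3 CPM with vehicle and 128, 275 and 105 CPM at 3 μg/kg, and adipocyte markers in all 6 (median 0.52), with overlapping sums. Tuft cell markers had estimates below 0 in 12 of 13 (median -0.40), with sums of 119, 105 and 125 CPM with vehicle and 96.2, 75.3 and 91.6 CPM at 3 μg/kg. B and plasma cell markers (median 0.24) had sums of 47.8, 35.6 and 33.3 CPM with vehicle and 56.5 CPM or more in each mouse at 3 μg/kg, without overlap. Markers of the distal colon, posterior Hox genes, had sums of 175, 74.1 and 70.7 CPM with vehicle and 75.8, 114 and 61.2 CPM at 3 μg/kg, with vehicle mouse 2 the highest, and all 4 tested estimates were below 0 (median -0.40). The part of these shifts in the results above was not tested. In scrapings, fewer cells of a type and less RNA per cell cannot be told apart. The medians of the goblet (0.02), enteroendocrine (0.20), stem (-0.08), cycling (-0.02), fibroblast (0.13), endothelial (0.38), enteric neuron and glia (0.14), T cell (0.25), macrophage (0.05) and anterior Hox (-0.07) lists lay nearer 0 than that of the tuft cell list.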

How the data were processed

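RNA-Seq of colonic epithelium from 27 male mice (9 doses, 3 mice each) was analysed, with the counts of the vehicle and 3 μg/kg TCDD groups as the subject. The authors deposited 1 table of raw read counts per gene and mouse. The submitters' processing notes name FastQC 0.11.3, Trimmomatic 0.33, TopHat2 2.1.0, SAMtools 1.2.0, HTSeq 0.6.1, DESeq and the build GRCm38, with no role or order. Rows that named no gene held 63.7 to 67.8% of the reads of the 6 libraries and were left out. Samples were grouped by the dose label.

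Counts of all 27 mice were fitted with edgeR 4.0.16 in R 4.3.3 (TMM, filterByExpr with a minimum count of 10, quasi-likelihood test, 9 dose groups), and the fit with the 1 μg/kg group split by index set gave the contrasts within the second set. The call needed 1.5-fold and a Benjamini-Hochberg adjusted p under 0.05. SE was the log2 fold change divided by the root of F. CPM used TMM library sizes. Count ratios have 95% exact binomial intervals (SciPy 1.17.1), which cover counting error only. The scripts were tested on simulated data. No pair of mice within a group agreed within sampling noise (27 pairs, lowest chi-square per degree of freedom 5.84).

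The text names called members of the fixed lists, members that define a pathway, and, outside the pathway lists, 8 rises and 8 falls, the largest among called genes whose mean reached 1 CPM and whose groups did not overlap. Of the listed and rule-named genes, 3 are not reported here. Members and lists were chosen with earlier results of these data known. Alternatives were RLE size factors, DESeq2 1.42.0, limma 3.58.1 (voom, also at a posterior probability of 0.8 or more), no count filter, a fit of the compared groups alone, adjusted p alone, a term for the index set, pooled low-dose controls, a covariate made from 13 clock genes, and each mouse left out.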

Additional observations from a re-analysis of the deposited data

Results flagged for a closer look

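Mouse 14, at 0.01 μg/kg, belonged to neither group compared, although it was 1 of the 27 mice in the fit, and its Dbp level of 60.0 CPM lay above the 1.37 to 2.00 CPM of the vehicle mice. The other mice of its group had 2.53 and 2.74 CPM. Its Tef was 124 CPM and its Arntl 11.8 CPM, also within the range of the second index set, and it had 0 counts of Cyp1a1.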

How the results depend on the processing

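Against the 115 genes called at 3 μg/kg over vehicle, DESeq2 called 198, voom at a posterior of 0.8 or more 53, no filter gave 180, the compared groups alone 230, adjusted p alone 231, the index set term 2 and the clock covariate 8. Leaving out 1 mouse gave 48 to 97, and of 240 fits so made of single called genes named by rule, 90 lost the call. The 3 AhR targets became 1 with the posterior, the index set term and the clock covariate, and were 3 without any single mouse. With the clock covariate Cyp1a1 moved from 10.1 to 14 and stayed called (edgeR adjusted p = 0.000122), and Ahrr was at 1.46 and Cyp1b1 at 3.82, neither called (0.238 and 0.29). The score behind that covariate ran from -2.81 to -2.58 with vehicle and from 1.66 to 2.09 at 3 μg/kg. It separates the groups as dose does, so this fit cannot tell a change with the clock from a change with dose. The 10 core clock genes became 0 with the index set term (7 to 8 with 1 mouse left out), and the 6 output genes became 1 (5 to 7). The 4 genes at 3 against 1 μg/kg became 23 with DESeq2, 2 with voom, 15 with no filter and 0 with the compared groups alone. They became at least 1 and at most 3 without mouse 49, 51 or 52, taken singly. The 8 genes at 10 against 3 μg/kg became 14 with DESeq2, 5 with voom and 14 with no filter (5 to 11 with 1 mouse left out, 5 without mouse 49, 52 or 57). Ahr, at 0.01, turned to -0.00597 with voom, -0.0486 with the index set term and between -0.0529 and -0.0459 without mouse 49, 51 or vehicle mouse 3 (-0.0529 to 0.133 over all mice left out). Pooled low-dose controls gave 121 genes, 64 of them shared with the 115, 72 higher and 49 lower. The cause of these shifts was not tested. The index set term rests on 3 mice. No paired analysis was possible because the groups share no mouse number. Genes with few counts, such as Cyp1b1 with vehicle, have wide errors at this depth.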
